A study of Homo sapiens with 18 samples.

Results

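RUNX1, RUNX2, RUNX3, FLI1, ERG, ETV6, SPI1, CEBPA, CEBPB and MYB are transcription factors of the myeloid and megakaryocyte branches of blood formation. They were chosen by symbol and make up 10 of the 28395 genes in each deposited RNA-seq table. They were followed through 9 RNA-seq and 9 ATAC-seq libraries of K562 cells, an erythroleukemia line derived from chronic myeloid leukemia. V-K562 are the control cells, labelled only as K562 cells, B-K562 cells express wtBASP1, and G-K562 cells express BASP1-G2A, a mutant whose N-terminus cannot be myristoylated, with 3 libraries of each line per assay. Stably transfected derivatives were kept as drug-selected pools, so each line is 1 pool. The libraries of a line therefore share that pool, and the p-values measure the spread between these libraries only. A difference between lines cannot be told apart from a difference between pools. BASP1 itself had normalized read counts of 7, 5 and 7 in V-K562, of 6849, 6618 and 6189 in B-K562, and of 9323, 12538 and 8124 in G-K562, in the order of the labels.

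RUNX factors bind DNA through the Runt domain together with CBFB, and RUNX1 is required for the first blood stem cells and for platelet formation. FLI1, ERG, ETV6 and SPI1 (PU.1) share the ETS domain. FLI1 and ERG act with RUNX1 in stem cells and megakaryocytes, ETV6 is mostly a repressor, and SPI1 drives monocytes, neutrophils and B cells. CEBPA and CEBPB are leucine zipper factors of granulocyte and macrophage genes, and MYB keeps progenitors proliferating and is shut off as blood cells mature. RUNX1, ETV6, CEBPA, SPI1 and MYB are all recurrently altered in leukemia.

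The order of the lines differed between these genes. In B-K562, RUNX2, RUNX3, CEBPA and CEBPB were more than 2-fold lower than in V-K562, SPI1 and MYB fell by less, and RUNX1 rose. In G-K562, RUNX1, RUNX2 and ETV6 rose, ERG was higher and RUNX3 lower in every library, and SPI1, CEBPA, CEBPB and MYB did not pass the test. Against B-K562, the 9 members tested were higher in G-K562, and FLI1, too low to be tested, had lower values there. A gene is called here at an adjusted p of at most 0.05 (limma, Benjamini-Hochberg over all genes tested) and a fold change of at least 2, and it passed the test at the adjusted p alone. RUNX3 and ERG entered the tests only through the line in which they were high, so they had to differ, and they are described by their values without a p.

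Sequences are given for promoters of RUNX2 and RUNX3 and for some accessible regions described below. RefSeq promoters (GRCh38.p14) were matched for 8 of the 10 genes, with 14 starts in all, and those of SPI1 and FLI1 were not among them. RUNX2 and RUNX3 each have a distal and a proximal promoter, and capitals mark matches on either strand to the letters searched. For RUNX factors these were TGTGGT or else TGCGGT, for CEBP factors TTGCNNAA, and for ETS factors GGAAGT. For MYB they were CAACTG with its variants CAACGG and also TAACTG and lastly TAACGG. For GATA factors, the partners of RUNX1 in erythroid and megakaryocyte cells, they were AGATAA. Each promoter is shown for the 250 bases before the start, 5′ to 3′ on the strand of the gene.
RUNX2 distal, chr6:45328080-45328329, plus strand: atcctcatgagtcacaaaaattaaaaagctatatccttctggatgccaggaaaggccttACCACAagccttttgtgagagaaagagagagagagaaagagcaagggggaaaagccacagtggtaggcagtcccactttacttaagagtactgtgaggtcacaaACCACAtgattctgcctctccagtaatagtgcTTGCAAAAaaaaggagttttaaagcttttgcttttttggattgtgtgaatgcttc
RUNX2 proximal, chr6:45422025-45422274, plus strand: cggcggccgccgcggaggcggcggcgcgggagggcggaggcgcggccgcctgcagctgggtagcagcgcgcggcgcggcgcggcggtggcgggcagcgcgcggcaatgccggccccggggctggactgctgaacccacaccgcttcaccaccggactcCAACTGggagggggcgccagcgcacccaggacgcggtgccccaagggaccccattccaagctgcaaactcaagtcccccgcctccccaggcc
RUNX3 distal, chr1:24965011-24965260, minus strand: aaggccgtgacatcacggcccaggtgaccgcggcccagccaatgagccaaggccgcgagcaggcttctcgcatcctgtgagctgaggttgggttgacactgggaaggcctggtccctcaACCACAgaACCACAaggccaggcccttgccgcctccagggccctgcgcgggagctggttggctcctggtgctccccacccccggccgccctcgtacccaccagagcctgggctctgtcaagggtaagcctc

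The RUNX2 distal window held 2 RUNX matches and 1 CEBP match, and the RUNX3 distal window held 2 RUNX matches, next to each other. No ATAC-seq peak of any library overlapped either distal window. Of the 14 member promoters, 2 held the RUNX letters, 1 the CEBP letters, 3 the MYB letters and 2 the GATA letters. Those 2 with GATA letters are overlapping ERG windows that hold the same match, so 1 site is counted 2 times. Over all 35116 RefSeq promoters the shares were 16.3% for RUNX, 9.05% for CEBP, 21.1% for MYB, 9.17% for GATA and 19.5% for ETS, which no member promoter held. A match describes the letters only and not a bound site.

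RUNX1 encodes the core blood Runt factor. Its normalized read count, the exon reads after the authors' scaling for library size, was 2728, 2479 and 2511 in V-K562, 3517, 3497 and 3607 in B-K562, and 4953, 4377 and 4489 in G-K562. Every B-K562 library was above every V-K562 library and below every G-K562 library. The log2 fold change over V-K562 was 0.46 ± 0.05 (SE, adjusted p = 1.5e-06) in B-K562 and 0.82 ± 0.07 (adjusted p = 7e-07) in G-K562. G-K562 was higher than B-K562 by 0.35 ± 0.06 (adjusted p = 4.1e-05).

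RUNX2, the Runt factor of bone that is also expressed in some blood progenitors, moved in opposite directions in the BASP1 lines. It read 335, 290 and 308 in V-K562, 60, 63 and 58 in B-K562, and 544, 527 and 586 in G-K562. None of these groups overlapped. Against V-K562 the log2 fold change was -2.35 ± 0.11 (adjusted p = 4.5e-10) in B-K562, a 5.08-fold fall, and 0.80 ± 0.09 (adjusted p = 9.3e-06) in G-K562. The direct difference of G-K562 over B-K562 was 3.15 ± 0.09 (adjusted p = 1.3e-12), or 8.87-fold.

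RUNX3, the Runt factor of T cells and some monocytes, was low throughout. V-K562 gave 65, 48 and 48, B-K562 gave 4, 0 and 2, and G-K562 gave 7, 7 and 9. Every library of both BASP1 lines was below every V-K562 library. The summed value in V-K562 was 26.8 times that in B-K562 (161 against 6, exact 95% interval 12.1 to 74.2) and 7.13 times that in G-K562 (164 against 23, 4.59 to 11.6), intervals that cover counting error only and treat rounded values as counts. On the log2 scale the B-K562 change was -4.46 with a pseudocount of 1 and -2.63 with a pseudocount of 8, so its size depends on that choice, and the G-K562 change was -2.68 and -1.99. Without B-K562 replicate 2, in which RUNX3 was at 0, the B-K562 change was -3.80. Between the BASP1 lines all 6 values were 9 or below, and RUNX3 was kept in that comparison only through V-K562. The G-K562 values of 7, 7 and 9 were above the B-K562 values of 4, 0 and 2, with a fitted difference of 1.79 that was 0.66 with a pseudocount of 8, 1.17 under quantile normalization and 1.14 without B-K562 replicate 2.

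**Figure D1:**
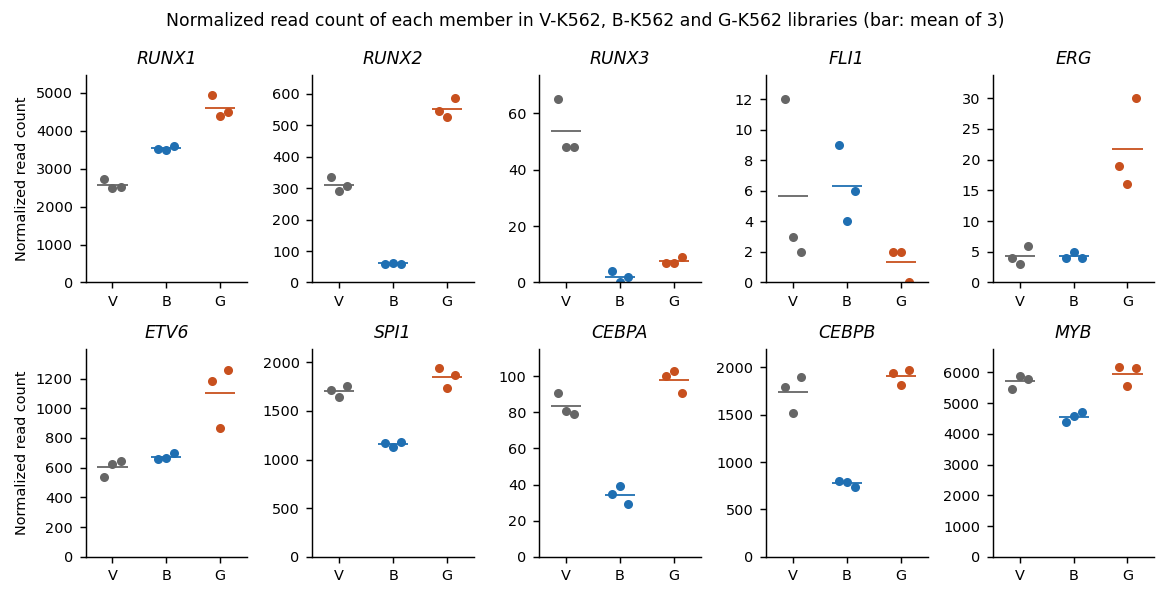
Normalized read count (y axis, from 0) of each of the 10 genes in the 3 libraries of each line, 1 point per library, with a bar at the mean. RUNX2 sits at 58 to 63 in B-K562 against 290 to 335 in V-K562, RUNX3 is near 0 in both BASP1 lines, and ERG and FLI1 stay at 30 or below everywhere.

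Among the ETS factors, FLI1 was at the edge of detection in all 3 lines. It read 12, 3 and 2 in V-K562, 9, 4 and 6 in B-K562, and 2, 2 and 0 in G-K562, and it failed the filter (at least 10 in at least 3 libraries) in every comparison, so it has no test, although its G-K562 libraries were all below those of B-K562. With no filter on low values FLI1 was called lower in G-K562 than B-K562 (-1.78 ± 0.60, adjusted p = 0.023), at values of 9 and below. ERG read 4, 3 and 6 in V-K562 and 4, 5 and 4 in B-K562, where it was not tested either. In G-K562 it read 19, 16 and 30, all above the other lines. The summed value was 5 times that of V-K562 (65 against 13, exact 95% counting interval 2.73 to 9.89). The fitted change over V-K562 was 2.08 with a pseudocount of 1 and 1.25 with a pseudocount of 8, and over B-K562 2.03 and 1.23. ERG passed the filter only through its G-K562 values.

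ETV6 read 538, 626 and 646 in V-K562, 661, 664 and 696 in B-K562, and 1183, 866 and 1260 in G-K562. No library of one line fell in the range of another. The rise in G-K562 was 0.83 ± 0.13 over V-K562 (adjusted p = 0.00013) and 0.67 ± 0.11 over B-K562 (adjusted p = 9.7e-05). In B-K562 the difference of 0.16 ± 0.08 missed the threshold (adjusted p = 0.065). It passed without V-K562 replicate 3 (0.21, adjusted p = 0.021).

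SPI1 is normally silenced as erythroid cells mature. It gave 1713, 1645 and 1753 in V-K562, 1165, 1134 and 1185 in B-K562, and 1940, 1738 and 1866 in G-K562. B-K562 stood apart from both other lines, while V-K562 and G-K562 overlapped. The fall in B-K562 was -0.55 ± 0.05 (adjusted p = 3.5e-07). In G-K562 the difference from V-K562 was 0.09 ± 0.06 (adjusted p = 0.22), with a 95% interval of -0.05 to 0.23, and G-K562 exceeded B-K562 by 0.64 ± 0.05 (adjusted p = 6.9e-08).

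Both C/EBP factors followed the order of SPI1. CEBPA, the master factor of granulocytes, read 91, 81 and 79 in V-K562, 35, 39 and 29 in B-K562, and 100, 103 and 91 in G-K562. The B-K562 change was -1.27 ± 0.17 (adjusted p = 1.2e-05). G-K562 differed from V-K562 by 0.20 ± 0.14 (adjusted p = 0.2, 95% interval -0.09 to 0.50) and from B-K562 by 1.47 ± 0.15 (adjusted p = 5.8e-07). Under quantile normalization the B-K562 change was -0.77 (adjusted p = 0.0012), under the 2-fold limit, and the difference of G-K562 from V-K562 passed the test at 0.36 (adjusted p = 0.036).

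CEBPB, a factor of inflammatory macrophage genes, had 1795, 1521 and 1896 in V-K562, 799, 794 and 739 in B-K562, and 1936, 1816 and 1971 in G-K562. The highest B-K562 library was well under the lowest V-K562 library. The change was -1.15 ± 0.08 in B-K562 (adjusted p = 1e-08) and 0.12 ± 0.08 in G-K562 (adjusted p = 0.23, 95% interval -0.06 to 0.30). G-K562 was 1.27 ± 0.08 above B-K562 (adjusted p = 1.3e-09).

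MYB was the most abundant member in read count. V-K562 gave 5460, 5889 and 5775, B-K562 gave 4388, 4569 and 4700, and G-K562 gave 6175, 5543 and 6143. The lowering in B-K562 was small but separated the groups, at -0.33 ± 0.05 (adjusted p = 3e-05). G-K562 differed from V-K562 by 0.04 ± 0.06 (adjusted p = 0.63, 95% interval -0.10 to 0.17), a difference that was -0.01 under quantile normalization. G-K562 was above B-K562 by 0.36 ± 0.05 (adjusted p = 2.3e-05).

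**Figure D2:**
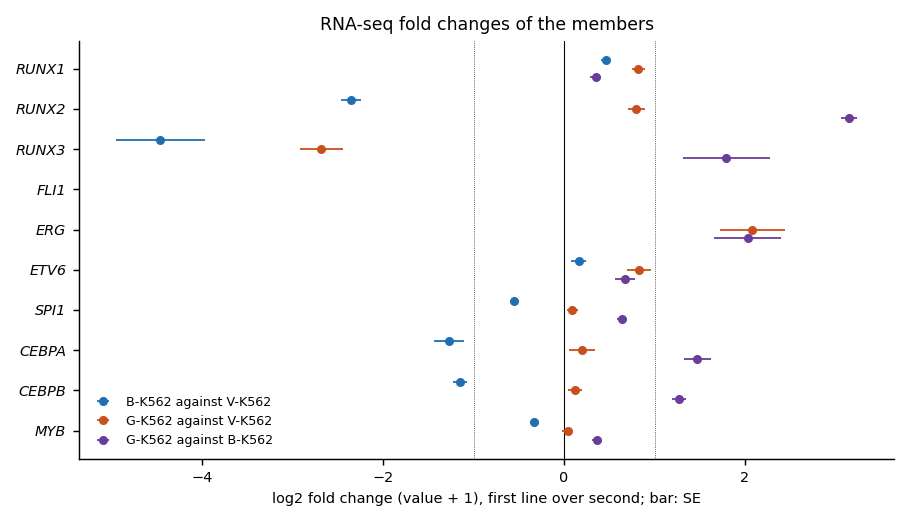
Log2 fold change of value + 1 (x axis) with its SE for each member (y axis) in the 3 comparisons, with dotted lines at 2-fold. The points of G-K562 against B-K562 all lie to the right of 0, from 0.35 for RUNX1 to 3.15 for RUNX2, FLI1 has no point, ERG has none for B-K562 against V-K562, and the points of RUNX3 and ERG rest on values under 10 in at least 1 line.

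Changes were frequent over the whole table, and the members are read against that. In B-K562 against V-K562, 8 members were tested, of which 4 were called lower (RUNX2, RUNX3, CEBPA and CEBPB) and 0 higher, and 14958 genes were tested, of which 14.1% were called lower and 6.46% higher. At the adjusted p alone 6 were lower and 1 was higher, against 37.2% and 38.6% of all genes. The median over the tested members was -0.85 and over all genes 0.01. The counts and the median include RUNX3, which passed the filter only through V-K562. With at least 10 required in every library 3 were called lower. Quantile normalization left 3 members called lower and changed the split over all genes from 967 higher and 2110 lower to 1426 and 1554.

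In G-K562 against V-K562, 9 members were tested with a median of 0.20 (0.00 over all genes). ERG was called higher and RUNX3 lower, 1 in each direction, where 8.81% of 15271 genes were called higher and 10.3% lower. Both passed the filter only through the line in which they were high. With at least 10 required in every library 0 members were called. Nothing is read from the count or the median. At the adjusted p alone 4 were higher and 1 lower, against 33.5% and 33.3% of all genes. In G-K562 against B-K562, RUNX2, RUNX3, ERG, CEBPA and CEBPB were called, 5 higher and 0 lower, with 17.4% and 12.5% of 15521 genes called higher and lower. At the adjusted p alone all 9 tested members, with RUNX3 and ERG among them, were higher and 0 lower, against 38.1% and 40.5%. Their median was 1.27 and that of all genes -0.02. Like the median, the count includes ERG and RUNX3, which passed the filter through 1 line only. It was 4 higher in a fit of the 6 libraries of these lines, with a pseudocount of 8 or under quantile normalization (each without RUNX3), 3 higher with at least 10 in every library (RUNX2, CEBPA and CEBPB), and 5 higher and 1 lower (FLI1) with no filter. The comparisons share libraries, so their directions are not independent of each other.

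Levels were compared between genes only per kilobase of exon. In V-K562 the order was MYB (1552 ± 60.4 per kb, SD, n = 3), CEBPB (824.2 ± 92.1), SPI1 (517.5 ± 16.6), RUNX1 (212.6 ± 11.2), ETV6 (73.8 ± 7.03), RUNX2 (39.2 ± 2.85), CEBPA (31.8 ± 2.44), RUNX3 (10.9 ± 2.001), FLI1 (1.23 ± 1.20) and ERG (0.518 ± 0.183). Neighbours in this order did not overlap between libraries except FLI1 and ERG. In B-K562 CEBPB (368.8 ± 15.8 per kb) and SPI1 (352.8 ± 7.81) overlapped, RUNX1 stood next at 292.6 ± 4.84, and RUNX2 at 7.60 ± 0.317 came below CEBPA at 13.1 ± 1.91. RUNX3 there was the lowest, at 0.408 ± 0.408 per kb, and overlapped ERG. In G-K562 the upper 7 ranks were those of V-K562, with RUNX1 at 380.7 ± 25.2 and ETV6 at 134.9 ± 25.5, and ERG (2.59 ± 0.882) stood above RUNX3 (1.56 ± 0.235) and FLI1 (0.290 ± 0.251).

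**Figure D3:**
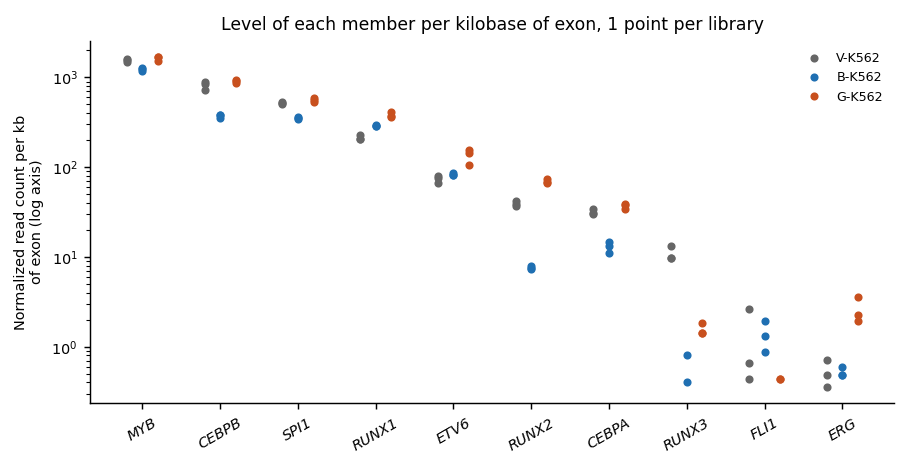
Normalized read count per kilobase of exon (y axis, log scale) for each gene, ordered by its V-K562 mean, with 1 point per library. From MYB to CEBPA the levels span 31.8 to 1552 per kb in V-K562, whereas FLI1 and ERG stay under 4 per kb in every library, and libraries at 0 (RUNX3 in 1 B-K562 library, FLI1 in 1 G-K562 library) cannot be drawn.

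The genes with the most similar pattern were sought for the 3 members with the widest range of line means. For RUNX2 they were INHBE, an activin subunit (1586 in V-K562, 122 in B-K562, 3420 in G-K562, r = 0.9990 over the 9 libraries), IL18 (r = 0.9988) and POLD4 (r = 0.9984). For RUNX3 they were FAM98C (r = 0.9901), ADGRG1 (r = 0.9733; 127, 23.1 and 53 in the 3 lines) and NXF3 (r = 0.9718). For ERG they were TJAP1 (r = 0.9949), SSR4P1 (r = 0.9878) and ACVR1B (r = 0.9853). The 9 points are 3 lines with shared scaling, so any gene with the same order of lines correlates, and no test is given.

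Neighbouring genes on the chromosome were described beside the members that fell in B-K562. Within 1 Mb of RUNX3, 23 genes were tested against V-K562, with a median of -0.10, 1 called higher and 2 called lower. Around CEBPB, 23 genes had a median of 0.21, with 4 called higher and 3 lower, and around CEBPA, 16 had a median of 0.08, with 1 higher and 3 lower. Near RUNX2 just 2 genes were tested, with a median of -0.28. SUPT3H, which overlaps RUNX2 on the opposite strand, read 515, 555 and 493 in V-K562, 329, 331 and 299 in B-K562, and 574, 587 and 533 in G-K562. The strand setting of the authors' exon counting is not given in the sources used here, so reads where RUNX2 overlaps SUPT3H, or CEBPB overlaps CEBPB-AS1 (75, 76 and 70 in V-K562), may not have been told apart.

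ATAC-seq peaks of the 9 libraries, merged where they overlapped, gave 85549 regions, of which 83 lay within 5 kb of a member. RUNX1 had 21, RUNX2 12, SPI1 10, ERG and ETV6 9 each, RUNX3 7, MYB 6, CEBPB 5, and FLI1 and CEBPA 2 each. By summit, 63 were in introns, 7 in exons of coding transcripts (GENCODE), 10 upstream and 3 downstream. A peak was called in all 9 libraries in 18 of them, and in fewer than 3 libraries in 29. The measure was the summit pileup, the number of tags over the highest point of a peak after the authors thinned all libraries to equal tags. Where a library had no peak, its value was set to the floor of 17.

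The region nearest an annotated coding start was found for 7 of the 10 genes, and 4 of these passed the test in some comparison. At the P2 start of RUNX1 (chr21:34888531-34889118) the pileup was 147, 151 and 179 in V-K562, 215, 216 and 202 in B-K562, and 187, 193 and 238 in G-K562, with no comparison past the test (adjusted p = 0.088 to 0.91). Without scaling, B-K562 (0.41, adjusted p = 0.019) and G-K562 (0.37, adjusted p = 0.043) were higher than V-K562 there. B-K562 also passed without V-K562 replicate 3 (0.34, adjusted p = 0.031), and G-K562 was lower than B-K562 without G-K562 replicate 3 (-0.34, adjusted p = 0.047). The SPI1 start (chr11:47378236-47378863) had 121, 180 and 153 in V-K562, 217, 178 and 173 in B-K562, and 157, 166 and 202 in G-K562, and none passed. At the CEBPB start (chr20:50190364-50191318) V-K562 had 77, 91 and 99, B-K562 83, 72 and 91, and G-K562 127, 139 and 156. The B-K562 libraries there overlapped V-K562 (log2 -0.27 ± 0.14, adjusted p = 0.2), but by the mean pileup over the peak the region was lower in B-K562 (-0.44 ± 0.11, adjusted p = 0.029), where CEBPB RNA was 2.23-fold lower. G-K562 was above B-K562 by 0.56 ± 0.13 (adjusted p = 0.0099).

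The CEBPA start (chr19:33302392-33302879) rose from 29, 41 and 38 in V-K562 to 68, 75 and 81 in G-K562 (0.70 ± 0.18, adjusted p = 0.016), while CEBPA RNA did not pass the test there. B-K562 had 54, 40 and 48 (0.24 ± 0.21, adjusted p = 0.43), and its CEBPA RNA was 2.41-fold lower. The G-K562 change lost the threshold without G-K562 replicate 2 or 3 (adjusted p = 0.053 and 0.059). At the MYB start (chr6:135181074-135181477) V-K562 had 56, 50 and 47, B-K562 86, 83 and 87, and G-K562 80, 70 and 75. It was higher in B-K562 by 0.58 ± 0.14 (adjusted p = 0.018, and 0.053 and 0.058 without B-K562 replicate 2 or 3), the line with the lowest MYB RNA, and lower in G-K562 than in B-K562 by -0.40 ± 0.11 (adjusted p = 0.028), a difference that missed the threshold without any single library of those lines (adjusted p = 0.056 to 0.074) except G-K562 replicate 1. Without scaling that difference was -0.19 ± 0.12 (adjusted p = 0.24), and with a peak required in every library its adjusted p was 0.081. G-K562 was higher than V-K562 at this start without scaling (0.55, adjusted p = 0.014). At the ETV6 start (chr12:11649515-11649801) a peak was called in 3 libraries only, at 38 in B-K562 and at 28 and 29 in G-K562. A neighbouring region 318 bases from that start (chr12:11648891-11649356) had a peak in 8 libraries. It had 26, 38 and no peak in V-K562, 32, 40 and 40 in B-K562, and 31, 28 and 48 in G-K562. No comparison passed the test there (adjusted p = 0.37 to 0.78). No region was found within 1 kb of a coding start of RUNX3, FLI1 or ERG.

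The proximal RUNX2 promoter shown above lies within a region (chr6:45421641-45422362) that ends 123 bases before the nearest GENCODE coding start. V-K562 had no peak, 23 and 29 there, B-K562 25, 22 and 23, and G-K562 61, 46 and 68. G-K562 stood above both other lines. The region was called higher than in V-K562, with V-K562 replicate 1 at the floor. In that comparison it passed the filter (a peak in at least 3 libraries) only through G-K562, so no fold or p is given. The change over B-K562 was 1.06 ± 0.25 (adjusted p = 0.01). With absent peaks at the lowest summit pileup, the difference from B-K562 missed the threshold (1.06 ± 0.38, adjusted p = 0.061). Against V-K562 the call was lost without G-K562 replicate 1 or 3 or V-K562 replicate 2. Between B-K562 and V-K562 no difference was detectable (-0.07 ± 0.21, adjusted p = 0.84), and RUNX2 RNA was 5.08-fold lower in B-K562. In the intron about 2.8 kb upstream (chr6:45419495-45419846) V-K562 had 51, 33 and 33, B-K562 a single peak of 24, and G-K562 30, 44 and 33. That region was called lower in B-K562 with 2 libraries at the floor. It passed the filter (a peak in at least 3 libraries) only through V-K562, so no fold or p is given. The call was lost without B-K562 replicate 1 or 3.

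Inside MYB, a pair of neighbouring regions was called lower in G-K562 in the comparison with V-K562. The intronic region, with its summit 10.6 kb from the 5′ end of the gene (chr6:135191542-135192136), had 54, 43 and 44 in V-K562, 64, 65 and 53 in B-K562, and no peak in any G-K562 library. The next one, 11.1 kb in and over a coding exon (chr6:135192267-135192646), had 46, 48 and 49 in V-K562, 31, no peak and 28 in B-K562, and a single peak of 15 in G-K562. The 201 bases around each summit, on the plus strand with the same letters in capitals, are given because these were the only called regions at MYB.
MYB intron, chr6:135191836-135192036, plus strand: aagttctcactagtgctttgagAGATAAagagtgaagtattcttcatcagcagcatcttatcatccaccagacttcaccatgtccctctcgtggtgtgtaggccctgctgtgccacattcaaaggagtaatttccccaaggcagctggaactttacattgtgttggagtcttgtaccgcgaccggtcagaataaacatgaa
MYB exon, chr6:135192284-135192484, plus strand: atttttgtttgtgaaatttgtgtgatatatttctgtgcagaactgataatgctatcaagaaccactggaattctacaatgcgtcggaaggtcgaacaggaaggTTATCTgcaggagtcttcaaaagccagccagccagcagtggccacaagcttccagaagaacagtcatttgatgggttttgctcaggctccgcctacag

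Each of these windows held 1 GATA match, letters that 18.7% of all regions held. The intronic region was called lower in G-K562 against both other lines, but with all 3 G-K562 values at the floor its fold is set by that constant and is not given. The exonic region, with G-K562 at the floor throughout in the fit, was treated likewise. It was called lower in B-K562 against V-K562 with 1 library at the floor. In that comparison it passed the filter only through V-K562, so no fold or p is given. The call was lost without V-K562 replicate 3. The 95% interval of the MYB RNA difference between G-K562 and V-K562 was -0.10 to 0.17.

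Regions called higher in G-K562 than in V-K562 were found in ERG and SPI1. In an ERG intron (chr21:38478805-38479104) the G-K562 libraries had 53, 38 and 33, and no V-K562 or B-K562 library had a peak. The region passed the filter only through G-K562 and the compared values are all the floor, so no fold or p is given. ERG was the member with the greatest RNA rise in G-K562 over V-K562, from single-digit values, and this region is shown for that reason.
ERG intron, chr21:38478844-38479044, plus strand: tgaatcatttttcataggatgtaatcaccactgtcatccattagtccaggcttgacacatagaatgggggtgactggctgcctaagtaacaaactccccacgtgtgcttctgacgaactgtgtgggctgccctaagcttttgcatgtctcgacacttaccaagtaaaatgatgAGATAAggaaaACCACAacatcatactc

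The ERG window held 1 GATA and 1 RUNX match near its 3′ end. In SPI1 an intronic region (chr11:47373926-47374217) had 76, 78 and 64 in G-K562, no peak in V-K562, and 79 in 1 B-K562 library. It was called higher over V-K562, but every V-K562 value was the floor and the region passed the filter only through G-K562, so no fold or p is given. Over B-K562 it missed the threshold (1.11 ± 0.49, adjusted p = 0.14). Without B-K562 replicate 1 every compared value is the floor, so nothing is read from that fit. A second intronic region (chr11:47393178-47393762) lay 2.1 kb from the 5′ end of the annotated gene, but 15 kb upstream of the nearest coding start. It had 45, 52 and 52 in G-K562 and 1 peak in each other line (27 and 26). It was called in both comparisons, but it passed the filter only through G-K562 and 2 libraries of each other line were at the floor. No fold or p is therefore given. The call over V-K562 was lost without G-K562 replicate 2 or 3 or V-K562 replicate 2 or 3. Another (chr11:47394722-47395138) lay 0.728 kb from that end and 16.4 kb upstream of that coding start. It had 71, 60 and 62 in G-K562, and 26 and 34 in B-K562 with 1 library at the floor. The change over B-K562 was 1.13 ± 0.36 (adjusted p = 0.042). This call was lost without any single library except V-K562 replicate 1 or B-K562 replicate 3 (adjusted p = 0.052 to 0.14). It was also lost under the replicate block (adjusted p = 0.052). Downstream of CEBPB (chr20:50197388-50197868) B-K562 had 76, 50 and 76, V-K562 50, no peak and 36, and G-K562 a single peak of 28. G-K562 was called lower than B-K562 with 2 libraries at the floor (-1.74 ± 0.40, adjusted p = 0.0093). Neither B-K562 (0.92 ± 0.39, adjusted p = 0.12) nor G-K562 (-0.80 ± 0.41, adjusted p = 0.16) passed the test against V-K562. B-K562 did so under the replicate block (adjusted p = 0.035).

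**Figure D4:**
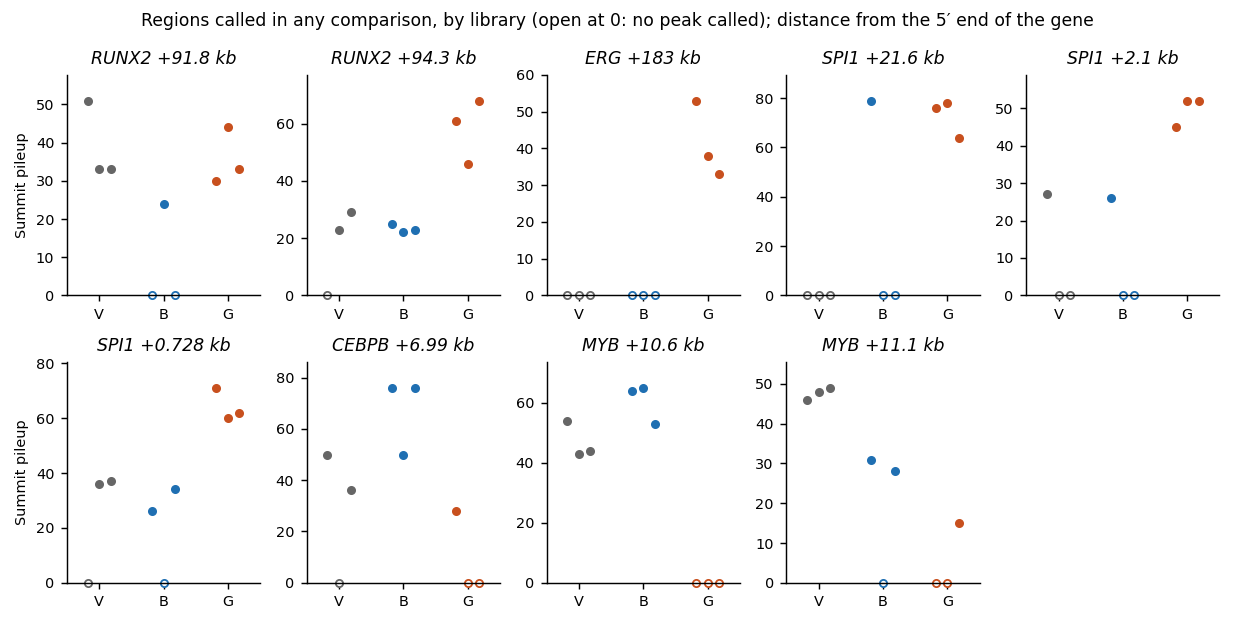
Summit pileup (y axis, tags, from 0) of the 9 regions called in any comparison, by line and library, with open points at 0 where no peak was called and the distance of the summit from the 5′ end of the gene in each title. The 5′ end of SPI1 used there is 17.1 kb from the summit of its start region. The MYB region at 10.6 kb has no G-K562 peak, and the ERG region has peaks of 33 to 53 in G-K562 only.

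Of the 42 member regions tested in B-K562 against V-K562, 2 were called lower and 0 higher, where 6.10% and 1.51% of 52204 regions were called lower and higher. In G-K562 against V-K562, 49 were tested, 4 called higher and 2 lower, against 2.85% and 13.1% of 54213 regions. In G-K562 against B-K562, 54 were tested, 3 called higher and 2 lower, against 4.21% and 8.47% of 60181. The medians over the tested member regions were -0.07, -0.10 and 0.05, beside -0.06, -0.10 and 0.00 over all regions. Of the called regions, 3 in G-K562 against V-K562 (in ERG, SPI1 and MYB) and 1 in G-K562 against B-K562 (in MYB) had no peak in any library of 1 of the lines compared. Without the trimmed-mean scaling the members had 1 region called higher and 0 lower in B-K562 against V-K562, 8 and 2 in G-K562 against V-K562, and 4 and 2 in G-K562 against B-K562, and 0 regions were called in any comparison when a peak was required in every library, at which all called regions above drop out of the test.

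**Figure D5:**
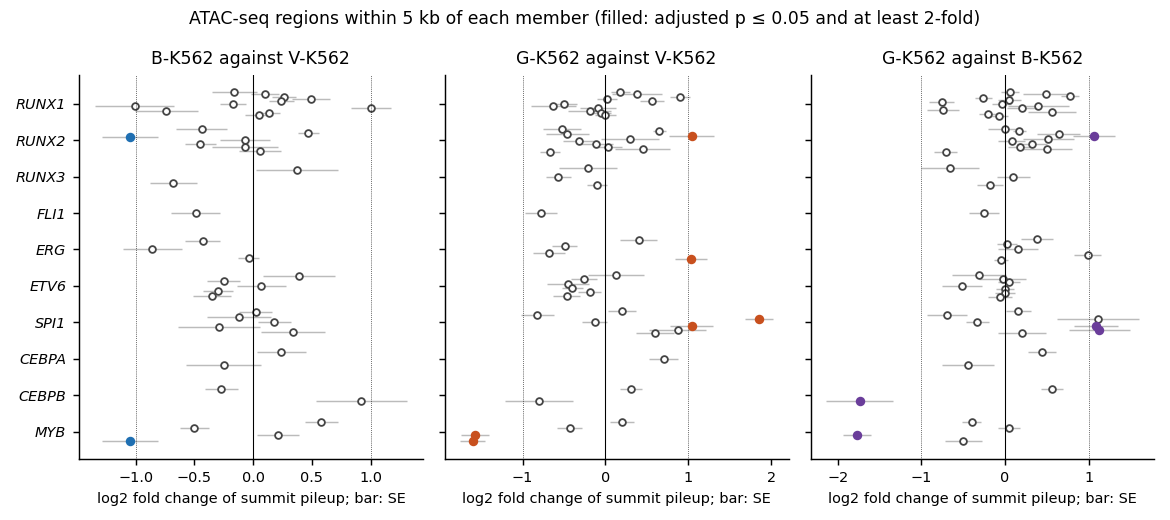
Log2 fold change of summit pileup with its SE (x axis) for the tested regions within 5 kb of each gene (y axis) in the 3 comparisons, filled where called and open otherwise. Most points lie within 2-fold of 0, and the called ones are 2 in B-K562 against V-K562, 6 in G-K562 against V-K562 and 5 in G-K562 against B-K562.

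A region with its summit 0.562 kb downstream of the P2 start of RUNX1 (chr21:34887967-34888460), picked after its values were seen, had 75, 68 and 77 in V-K562, 86, 85 and 91 in B-K562, and 172, 153 and 204 in G-K562. It passed the test in G-K562 over V-K562 (0.90 ± 0.12, adjusted p = 0.0012) and over B-K562 (0.78 ± 0.11, adjusted p = 0.00064), short of 2-fold. By letters, 24.1% of the 83 member regions held a RUNX match within 201 bases around the summit. The shares were 21.7% for ETS, 15.7% for CEBP, 21.7% for MYB and 24.1% for GATA. Over all regions they were 21.0% for RUNX, 18.6% for ETS, 7.61% for CEBP, 19.7% for MYB and 18.7% for GATA. Over all tested regions the median change in G-K562 against V-K562 was -0.09 with a RUNX match, -0.13 with an ETS, -0.23 with a CEBP and -0.19 with a MYB match, beside -0.10 for all. It was -0.72 with a GATA match, and 36.5% of those 9264 regions were called lower, beside 13.1% of all tested regions. Median GC content ranged from 47.8% for regions with a GATA match to 53.2% with an ETS match, and its part was not tested.

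The partners of the members were described by lists of fixed symbols. List counts include genes that passed the filter only through the line in which they were high. The shares of all genes called, given above for each comparison, are the background of these counts. Of 18 RUNX cofactors, 16 were tested in B-K562 against V-K562, and 2 were called lower and 0 higher (median 0.22). The corepressor TLE2 went from 1213 ± 123 (SD) in V-K562 to 253.7 ± 25.9 in B-K562 (-2.25 ± 0.09, adjusted p = 1.1e-10). In the other table it went from 1234 ± 129 in V-K562 to 4831 ± 314 in G-K562 (1.97 ± 0.08, adjusted p = 3.4e-09). TLE4 read 468, 448 and 412 in V-K562 and 18, 21 and 9 in G-K562. It passed the filter only through V-K562, so no p is given. In G-K562 against V-K562 1 cofactor was called higher and 1 lower of 17 (median 0.37), and in G-K562 against B-K562 3 and 2 of 17 (median 0.11), among them PRMT1 (-1.03 ± 0.06, adjusted p = 6e-10).

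Of 20 other ETS factors, 18 were tested. In B-K562 against V-K562 2 were called higher and 3 lower (median 0.09), in G-K562 against V-K562 1 and 2 (0.17), and in G-K562 against B-K562 3 and 1 (0.17). ETS1, the ETS factor of lymphocytes, fell from 874.3 ± 120 to 114.7 ± 4.04 in B-K562 (-2.91 ± 0.10, adjusted p = 2.7e-11), and from 889.3 ± 124 to 183.3 ± 54.0 in G-K562 (-2.31 ± 0.18, adjusted p = 6.4e-07). The epithelial factor ELF3 fell in B-K562 (-3.96 ± 0.19, adjusted p = 6e-10). EHF, also epithelial, passed the filter only through V-K562 (83, 66 and 89), read 9, 9 and 3 in B-K562, and is given without a p. ELF3 also fell in G-K562 (-2.70 ± 0.16, adjusted p = 5.4e-08), where the repressor ERF rose (1.11 ± 0.06, adjusted p = 2.4e-08).

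Among the 5 other CEBP factors, all tested, 3 were called lower and 0 higher in B-K562 against V-K562 (median -1.07). These were CEBPD (147.7 to 58.7), CEBPG (4637 ± 84.0 to 2212 ± 32.7) and the stress factor DDIT3 (5080 ± 239 to 2350 ± 93.4). In G-K562 against V-K562 0 were called higher and 1 lower (median 0.07), and against B-K562 2 were higher and 1 lower (0.35), the higher ones being CEBPG (1.39 ± 0.04, adjusted p = 1.3e-12) and DDIT3 (1.40 ± 0.06, adjusted p = 2.3e-11). Of the other MYB factors, MYBL1 and MYBL2, neither was called in B-K562 or G-K562 against V-K562 (at the adjusted p alone, 1 in each direction in both; medians -0.32 and 0.22), and 1 was called higher in G-K562 against B-K562 (0.53).

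The 12 factors that work with RUNX1, FLI1 and ERG in blood progenitors were all tested. In B-K562 against V-K562 IKZF1 rose (1.20 ± 0.05, adjusted p = 2.2e-10) and the repressor GFI1 fell (-1.93 ± 0.12, adjusted p = 5.5e-09), the others were not called, and the median was 0.33. In G-K562 against V-K562 0 were higher and 2 lower (median 0.10), GFI1B (3849 ± 51.5 to 978.7 ± 111, -1.98 ± 0.08, adjusted p = 2.6e-09) and the bridging factor LMO2 (-1.26 ± 0.08, adjusted p = 1.7e-07). In G-K562 against B-K562 1 was higher and 4 lower (median -0.50).

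Lineage genes followed. Of 30 megakaryocyte genes, 2 were called higher and 2 lower of 17 in B-K562 against V-K562 (median 0.19), 2 and 3 of 19 in G-K562 against V-K562 (-0.42), and 3 and 4 of 19 in G-K562 against B-K562 (-0.17). The platelet integrin ITGA2B fell in both BASP1 lines (-1.31 ± 0.06, adjusted p = 4.9e-10, and -2.39 ± 0.12, adjusted p = 2.3e-08) and the collagen receptor GP6 rose in both (1.32 ± 0.11, adjusted p = 7.1e-08, and 2.03 ± 0.11, adjusted p = 3.9e-08). Of 32 neutrophil and monocyte genes, 2 were called higher and 7 lower of 17 in B-K562 against V-K562 (median -0.80), 6 and 5 of 20 in G-K562 against V-K562 (0.06), and 12 and 4 of 20 in G-K562 against B-K562 (1.40). Under quantile normalization these counts were 4 and 4 (median -0.53), 6 and 5 (0.20), and 9 and 4 (1.06). The granule gene AZU1 (-1.83 ± 0.18, adjusted p = 5.2e-07) and the cytokine receptor CSF3R (-2.39 ± 0.21, adjusted p = 1.5e-07) fell in B-K562. PRTN3, another granule gene, needed its V-K562 values (51, 36 and 67) to pass the filter, and read 10, 5 and 4 in B-K562. The 2 called higher there were the cytokine receptor CSF2RB (1.29 ± 0.08, adjusted p = 6e-09) and the integrin ITGAM (45.7 to 92, adjusted p = 7.9e-05), named after their values were seen. Over V-K562, the Fc receptor FCGR1A in G-K562 went from 1.67 to 92.7, and CSF2RB fell (229 to 22.3, -3.32 ± 0.17, adjusted p = 2.5e-08). MS4A6A went from 78 to 7.67. FCGR1A and MS4A6A each passed the filter only through the line in which they were high, so they have no p here.

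Of 12 MYB target genes, 8 were tested in B-K562 against V-K562 with 0 called higher and 1 lower (median 0.34), 9 in G-K562 against V-K562 with 2 and 0 (-0.04), and 9 in G-K562 against B-K562 with 3 and 1 (-0.26). ADA fell in B-K562 (480 ± 5.57 to 173.7 ± 12.5, -1.46 ± 0.08, adjusted p = 2.9e-09), and BCL2 rose in G-K562 (2.42 ± 0.23, adjusted p = 2.7e-06). SLAMF1 read 5, 2 and 8 in V-K562 and 110, 142 and 154 in G-K562, and it passed the filter only through G-K562, so no p is given. Of 14 eosinophil, basophil and mast cell genes, 5 were called higher and 0 lower of 7 in B-K562 against V-K562 (median 1.90), 1 and 3 of 4 in G-K562 against V-K562 (-2.57), and 1 and 6 of 7 in G-K562 against B-K562 (-3.32). EPX, the eosinophil peroxidase, read 10, 9 and 3 in V-K562 and 260, 272 and 280 in B-K562. It passed the filter only through B-K562, so no p is given. Just 4 genes of this list were tested without B-K562, and the others needed the B-K562 values to pass. The counts and medians that involve B-K562 are therefore partly set by the filter.

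K562 markers and the markers of other cells moved with the lines as well. All 13 erythroid genes passed the test upward in B-K562 against V-K562 (3 called higher, 0 lower, median 0.87), and in G-K562 9 were called lower and 0 higher (-1.20; against B-K562 11 lower and 0 higher, -2.32). The T and B lymphocyte list had a summed value of 3037 to 3251 in V-K562. B-K562 gave 342 to 368, and G-K562 gave 675 to 729. Most of it was PTPRC, the pan-leukocyte CD45 (2472 in V-K562), with MS4A1 at 0 throughout. That list had 0 called higher and 6 lower of 7 in B-K562 (median -1.45), 0 and 4 of 7 in G-K562 (-1.25), and 3 and 1 of 7 in G-K562 against B-K562 (0.63). Under quantile normalization these counts were 1 and 4, 0 and 4, and 1 and 1. The fibroblast, endothelial and epithelial list, mainly KRT8 and KRT18, summed to 38647 to 40253 in V-K562. Its sum was 26576 to 27023 for B-K562 and 43852 to 45286 for G-K562, with 0 higher and 1 lower of 10 in B-K562 (-0.48), 0 and 1 of 9 in G-K562 (-0.40), and 1 and 2 of 10 against B-K562 (0.24). The part of these shifts in the members' values was not tested, and a smaller share of cells with a gene cannot be told from less RNA per cell in these bulk libraries.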

How the data were processed

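The authors mapped RNA-seq reads to GRCh38 with STAR, removed duplicates, assigned uniquely mapped pairs to RefSeq genes with Subread, scaled them with DESeq2 and deposited rounded values, treated as a score rather than as counts. Other deposited columns that hold line means and the authors' fold changes and p-values were not used, and the deposited exon Length gave levels per kb. For ATAC-seq the authors mapped with BWA-MEM, sampled each library to an equal number of tags and ran MACS2 on each one separately, and the deposited signal is the summit pileup, or its mean over the peak, in tags. RNA values summed to 32074895 to 33138341 per library, which after scaling does not show depth, and libraries had 47111 to 55570 peaks. A value below 10 carries a large counting error.

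Genes that reached 10 in 3 or more of the libraries in a fit were tested with limma 3.58.1 (R 4.3.3) on log2(value + 1), a scale that understates changes of low genes. B-K562 and G-K562 were each fitted with V-K562 in their own table. The BASP1 lines were compared with each other in 1 fit of 9 libraries after placing B-K562 on the scale of the other table by the V-K562 values. Regions with a peak in at least 3 libraries were tested on log2 pileup after trimmed-mean scaling (30% of log ratios, 5% of means), with values absent or below the 5th percentile (17) set to it. The scripts were checked on simulated data. Other steps used Python 3.11.15, scipy 1.17.1, pandas 2.3.3, numpy 2.4.6 and, for figures, matplotlib 3.10.9. Annotation was GENCODE, and sequences came from RefSeq promoters (GRCh38.p14) and the GRCh38 genome.

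The members, lists and tests were chosen with earlier results of these data known. Named were all members, for each list and comparison up to 3 called genes with the largest change and a mean of at least 50 in a line, the region nearest each start within 1 kb, up to 3 called regions per gene and comparison, and for the 3 members of widest range the 3 genes best correlated with them. Not every gene this rule allows is described. Alternatives were pseudocounts of 0.5 and 8, other filters, quantile normalization, a replicate block, fits of 6 or 9 libraries, no ATAC-seq scaling, another floor, the mean pileup, and leaving out each library.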

Additional observations from a re-analysis of the deposited data

How the results depend on the processing

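The 4 member genes called in B-K562 against V-K562 numbered 3 to 4 under every alternative, and the counts without each library in turn were 4 to 4, 2 to 2 in G-K562 against V-K562 and 5 to 5 in G-K562 against B-K562. Requiring at least 10 in every library removed low members from the test and left 0 called in G-K562 against V-K562 and 3 in G-K562 against B-K562. The latter count was 4 in a fit of 6 libraries, with a pseudocount of 8 and under quantile normalization, and 6 with no filter, when FLI1 was called lower. Folds of RUNX3 and ERG shrank by more than 1.5 times with a pseudocount of 8. Called counts of some gene lists also depended on normalization. Under quantile normalization, in B-K562 against V-K562, the other ETS factors had 3 higher and 3 lower and the other CEBP factors 0 and 2. The erythroid genes kept 3 and 0 there. Calls of regions depended on the treatment of absent peaks. For B-K562 against V-K562, G-K562 against V-K562 and G-K562 against B-K562 the 2, 6 and 5 called regions became 6, 13 and 8 with absent peaks at the lowest summit pileup, 0, 4 and 2 with the mean pileup, 1, 10 and 6 without scaling, and 0, 0 and 0 with a peak in every library. Without single libraries they ranged from 1 to 3, from 4 to 6 and from 4 to 6. Without scaling, the share of called regions that were higher went from 19.8% to 33.9%, from 17.9% to 48.5% and from 33.2% to 48.0% over all regions.

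Some differences that had not passed the test changed sign. MYB RNA in G-K562 against V-K562 was -0.01 under quantile normalization. The RUNX2 region near the proximal start, B-K562 against V-K562, was 0.17 with absent peaks at the lowest pileup, 0.03 with the mean pileup, 0.05 without scaling and ranged from -0.28 to 0.13 without single libraries. The ETV6 start region, G-K562 against B-K562, was 0.21, 0.08 and 0.10 under the same 3 settings and ranged from -0.22 to 0.35 without single libraries, with 0.35 and 0.13 without B-K562 replicate 3 or G-K562 replicate 3. In G-K562 against V-K562 the CEBPB start region was -0.02 with the mean pileup, the SPI1 start region was 0.22 without scaling, and the RUNX1 P2 region ranged from -0.05 to 0.11 and was -0.05, -0.03 and -0.02 without G-K562 replicate 3, V-K562 replicate 1 or V-K562 replicate 2. The cause was not tested.

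Same-numbered libraries did not deviate together (correlations of -0.080 to 0.136 in RNA-seq and 0.007 to 0.121 in ATAC-seq), so replicate numbers were not taken as pairs. With the number as a replicate block the member genes called were 4, 2 and 5 and the member regions 3, 6 and 4 for B-K562 against V-K562, G-K562 against V-K562 and G-K562 against B-K562, and the ETV6 difference in B-K562 passed the test at 0.16 (adjusted p = 0.041).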
